A study of Mus musculus with 6 samples.

Results

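The transforming growth factor beta (TGF-beta) and bone morphogenetic protein (BMP) signalling genes were examined in mouse aortic smooth muscle cells after knockdown of Sirt6. Members were the listed genes whose symbols name a ligand, receptor, Smad, extracellular antagonist or intracellular regulator of the pathway, chosen by a pattern on the symbol, with Gdf15 left out. There were 44 such genes among 7384 listed. The same pattern takes 81 protein-coding genes of the annotation. The other 37, among them Eng, Tgfb3, Inhba, Nog, Smad1, Smad5 and Tgfbr3l, were not analysed here. The pattern also takes 3 genes that are placed there by name or as a downstream enzyme, Zfyve1, Zfyve21 and Nox4, and Bmp2k, a kinase named for its induction by BMP2.

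TGF-beta, activin and BMP ligands are secreted dimers. Each brings together type II and type I receptor kinases, and the type I kinase phosphorylates receptor Smads, which enter the nucleus with Smad4. TGF-beta and activin act mainly through Smad2 and Smad3, and BMPs through Smad1, Smad5 and Smad9. Secreted antagonists such as gremlin, chordin, noggin and follistatin hold ligands away from the receptors. Smad6, Smad7, Ski, SnoN (encoded by Skil) and PMEPA1 restrain the signal inside the cell, and several of these genes are themselves targets of the pathway. In the artery wall, TGF-beta promotes contractile and matrix gene expression in smooth muscle, and BMP signalling bears on vascular growth and calcification.

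Cells of the Control group (n = 3) and of the siSirt6 group (n = 3, small interfering RNA against Sirt6) were cultured from mouse aorta and collected at 48 h. Sirt6 encodes a nuclear NAD-dependent deacylase. The strain, age and number of animals, and what the Control cultures received, are not given in the sources used here. Nothing in those sources says that replicates came from separate cultures, so p-values measure the spread between these samples, which may be technical. Expression is given as normalised read counts, that is, reads per gene divided by 1 factor per library. The listed genes took 14458847 to 14866718 recovered reads per library in 5 libraries. In siSirt6 replicate 1 they came to 15526399, but a second check for whole reads did not accept that library. Sirt6 stood at 251.7, 257.0 and 270.4 in Control and 44.5, 59.8 and 63.5 in siSirt6, a fall to 0.215 of the Control mean, in the direction of the labels. Of the 8 listed smooth muscle markers, Acta2 was the most abundant (58253 ± 107.4 in Control, SD, n = 3). Control means of Tpm2, Smtn, Lmod1 and Actg2 were 10943, 2817, 1535 and 926.9. Myh11 stood at 595.3 ± 16.6, Cnn1 at a mean of 428.1 and Tagln at 178.7 ± 32.3, and Des and Myocd were not analysed here. In bulk RNA, fewer cells of a type and less RNA per cell cannot be told apart.

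The tables hold almost only genes that differ. Of 7179 genes tested, 99.8% passed an adjusted p of 0.05, 50.5% higher and 49.3% lower in siSirt6. All 44 members were tested and all 44 passed, 15 higher and 29 lower, so that a call by itself sets no member apart. Group ranges did not overlap for 42 members, against 96.8% of all genes tested. The median log2 fold change (siSirt6 minus Control, on log2(value + 1)) was -0.25 over the members and 0.08 over all genes tested. In size, 5 members were past 2-fold, among them Fstl4, Bmpr1b, Grem1 and Bmp2, against 7.76% of genes tested. Bmpr1b entered the test only through its Control values, as given below. With p adjusted over all 55450 annotated genes, 42 members passed, against 90.4% of genes tested. The exceptions were Bmpr1b and Acvrl1.

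Transcript length moved with direction. The longest annotated transcript had a median of 4329 nt over the members and 3384 nt over all genes tested. Among the 2421 tested genes at or above 4329 nt, 25.0% were higher, and among the 22 members of that length 18.2% were. Among the 4709 shorter genes 63.4% were higher, and 11 of the 22 shorter members were. A second fit, called length-adjusted here, first took a smooth trend on length and GC content out of each library. It left 15 members higher, 20 lower and 9 that did not pass. In it 37.3% of all genes were higher and 36.8% lower. Values from it are given below wherever they end or turn a call.

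**Figure D1:**
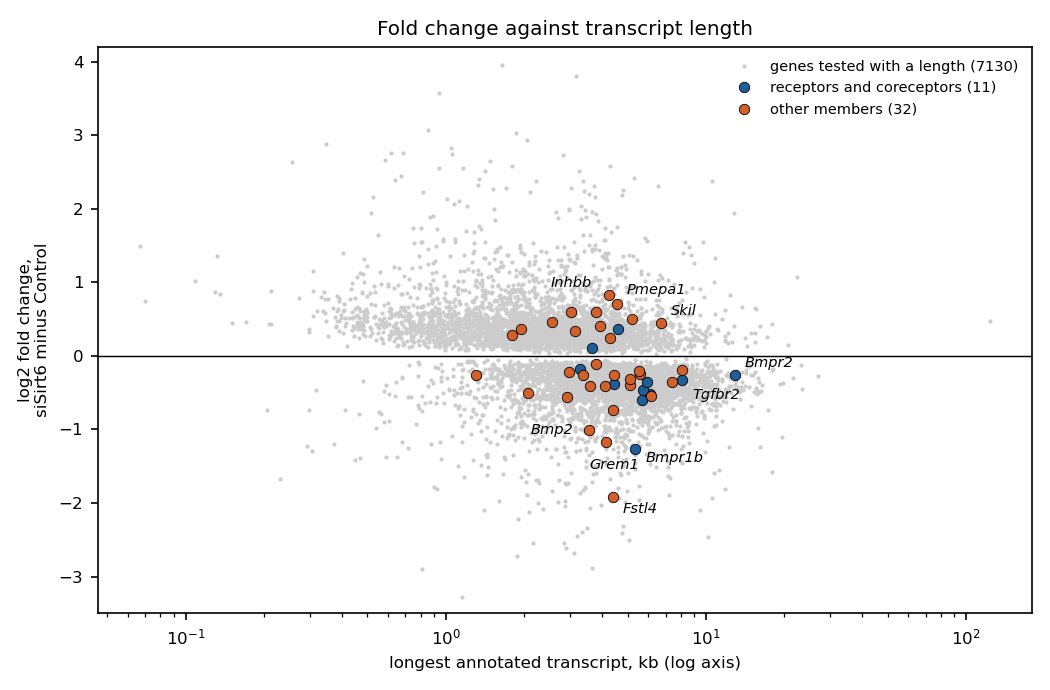
Log2 fold change (siSirt6 minus Control, vertical axis) against the longest annotated transcript in kb (horizontal log axis) for genes tested with a length (grey) and 43 members (11 receptors and coreceptors blue, 32 others orange). Long genes lie mostly below 0, as do 9 of the 11 receptors and coreceptors, while Inhbb, Pmepa1 and Skil lie above it.

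Upstream sequence was available for 32 of the 44 members. The 250 bases before the RefSeq start (GRCm38.p6) are shown for 3 genes of the BMP arm that fell, the antagonists Grem1 and Chrd and the ligand Bmp4, and for the activin subunit gene Inhbb, which rose. Capitals mark any of 4 letter strings on either strand: GTCTAGAC and CAGACA, which hold Smad-binding letters, GGCGCC, a GC-rich string linked to BMP Smads, and the E-box CACCTG.
Grem1, chr2:113758649-113758898, minus strand: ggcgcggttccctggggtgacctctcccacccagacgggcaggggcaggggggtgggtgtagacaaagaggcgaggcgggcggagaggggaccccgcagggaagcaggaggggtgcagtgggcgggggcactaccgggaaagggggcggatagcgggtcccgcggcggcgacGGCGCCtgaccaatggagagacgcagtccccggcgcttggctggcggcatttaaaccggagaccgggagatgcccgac
Chrd, chr16:20732877-20733126, plus strand: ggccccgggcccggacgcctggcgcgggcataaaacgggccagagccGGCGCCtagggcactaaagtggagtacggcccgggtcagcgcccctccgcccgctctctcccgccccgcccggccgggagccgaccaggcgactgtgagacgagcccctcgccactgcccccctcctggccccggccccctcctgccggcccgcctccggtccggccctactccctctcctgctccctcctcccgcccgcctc
Bmp4, chr14:46390670-46390919, minus strand: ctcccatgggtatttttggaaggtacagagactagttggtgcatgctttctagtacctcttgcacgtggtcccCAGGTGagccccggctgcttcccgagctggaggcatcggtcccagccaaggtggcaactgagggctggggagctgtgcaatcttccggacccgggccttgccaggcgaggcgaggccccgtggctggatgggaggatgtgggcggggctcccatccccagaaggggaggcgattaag
Inhbb, chr1:119422249-119422498, minus strand: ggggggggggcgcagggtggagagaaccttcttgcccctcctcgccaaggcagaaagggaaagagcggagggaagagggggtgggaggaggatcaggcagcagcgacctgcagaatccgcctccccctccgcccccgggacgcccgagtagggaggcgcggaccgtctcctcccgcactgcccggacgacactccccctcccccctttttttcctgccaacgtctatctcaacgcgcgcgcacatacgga
Grem1 and Chrd each hold 1 GGCGCC, 78 and 203 bases before the start, Bmp4 holds 1 CACCTG read on the other strand, 177 bases before it, and the Inhbb window holds none of the 4 strings. Over the members, GGCGCC lies in 31.2% of the 32 genes, against 21.0% of 5538 listed genes and 10.8% of all 27025 genes with a window. The share with CAGACA was 28.1% of members, 16.1% of listed genes and 19.3% of all genes. CACCTG was found in 21.9%, 16.6% and 19.4%, and GTCTAGAC in none of the 32 members, 0.217% of listed genes and 0.200% of all genes. These matches describe letters and not bound sites.

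All 3 listed BMP genes fell, the activin subunit Inhbb, Tgfb1 and Gdf10 rose, and Tgfb2 fell, which makes 3 higher and 4 lower of 7. Over all genes tested, 50.5% were higher and 49.3% lower. Bmp2, an osteogenic BMP (chromosome 2, 133552159 to 133562885, GRCm38), stood at 114.2, 140.2 and 126.5 in Control and 77.1, 55.7 and 56.2 in siSirt6. It fell to 0.496 of Control (log2 -1.01, SE 0.161, adjusted p = 1.17e-06, limma). Every siSirt6 library lay below every Control library. Bmp4 (chromosome 14, 46383520 to 46390669), the most abundant ligand per kb in Control, gave 1194, 1172 and 1150.2 in Control and 841.5, 811.3 and 820.1 in siSirt6. The 2 groups lay far apart beside a spread of about 22.0 and 15.5 (SD), and Bmp4 fell to 0.703 of Control (log2 -0.51, adjusted p = 2.15e-11). Bmp6 fell to 0.755, from 362.5 ± 15.5 to 273.7 ± 16.9 (SD, n = 3). Of its exonic bases, 5.74% overlap the listed gene Txndc5 on the opposite strand. These 3 falls kept their calls in the length-adjusted fit, at log2 -0.998, -0.69 and -0.42.

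Inhbb (chromosome 1, 119415465 to 119422248) encodes the beta B subunit shared by activin B and inhibin B. It stood at 807.9, 733.1 and 802.6 in Control and 1396, 1407 and 1362 in siSirt6, a rise of 1.78-fold (log2 0.83, SE 0.049, adjusted p = 1.19e-16). The siSirt6 libraries were close to each other and all above Control. Tgfb1, the main TGF-beta of injured artery, gave 970.9, 972.7 and 1013 in Control and 1387, 1417 and 1255 in siSirt6. It rose 1.37-fold (log2 0.46, adjusted p = 3.30e-10), with siSirt6 replicate 3 the lowest of its group but still above Control. Tgfb2 went from 690.7 ± 64.4 to 555.1 ± 32.3 (log2 -0.31, adjusted p = 8.44e-05), a fall that did not pass in the length-adjusted fit (log2 -0.10, adjusted p = 0.19). Per kb of the longest transcript, the group means of Tgfb1 and Tgfb2 were 383 and 135 in Control and 526 and 109 in siSirt6. Gdf10, a BMP3-related ligand, rose 1.41-fold, from 341.7 ± 11.8 to 483.1 ± 8.55.

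**Figure D2:**
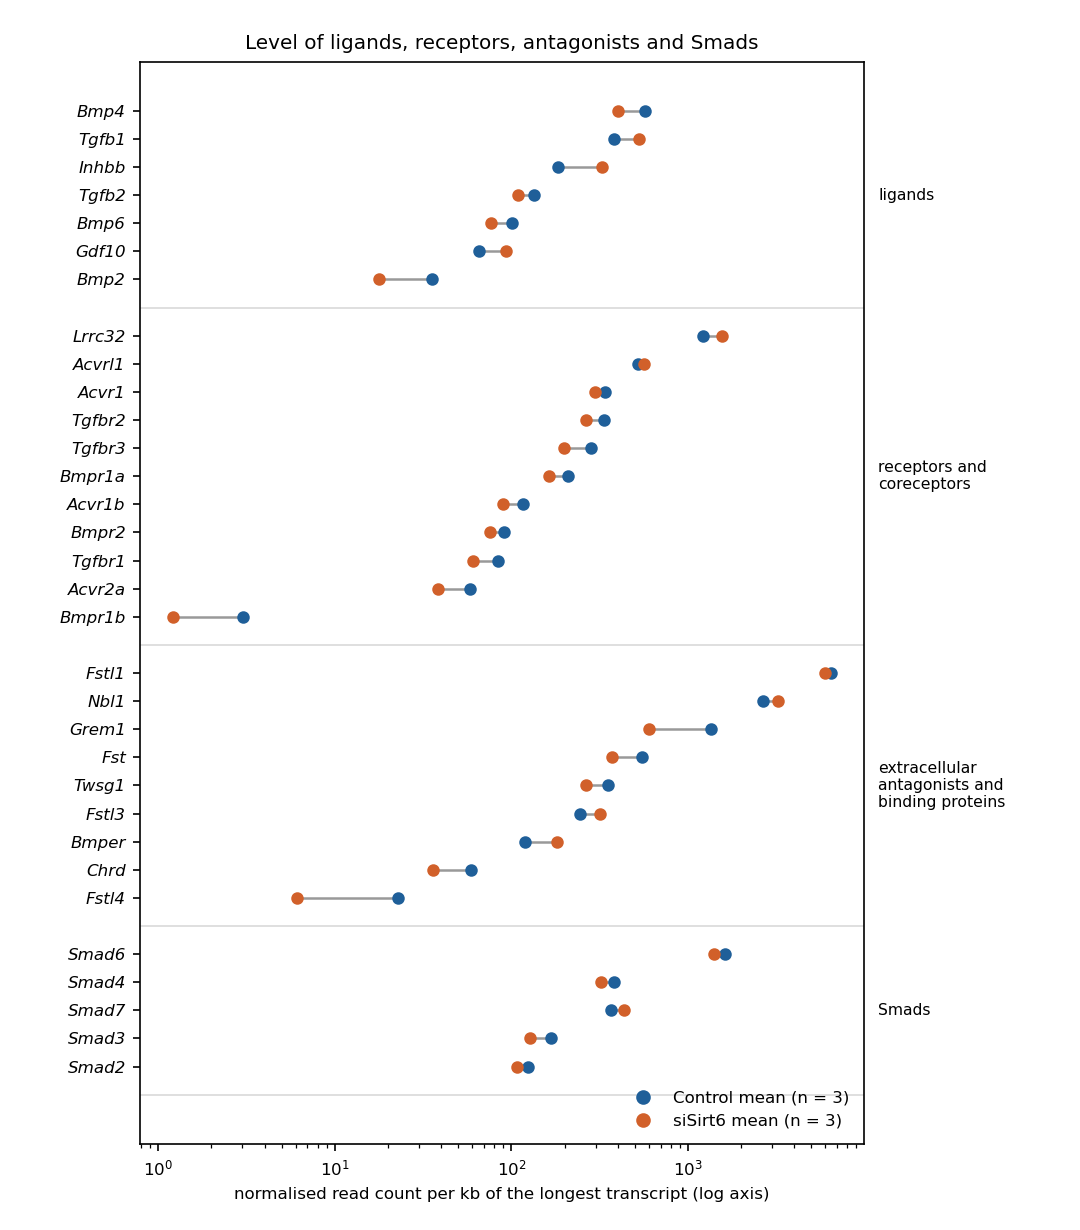
Group means (n = 3 each) of 32 ligands, receptors, antagonists and Smads as normalised read counts per kb of the longest transcript (horizontal log axis), Control blue and siSirt6 orange, each gene on its own line. Bmp4 leads the ligands in Control and Tgfb1 in siSirt6, and Grem1 moves from 1348 per kb in Control to 600 in siSirt6.

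Receptor genes were mostly lower. Of the 9 type I and type II receptor kinases listed, 8 fell and 1, Acvrl1, rose, while 49.3% of all genes tested were lower. Their transcripts were long (median 5686 nt), and of tested genes at or above 4329 nt 25.0% were higher. In the length-adjusted fit 5 of the 9 were lower, as given below. Tgfbr2, the type II receptor of TGF-beta, stood at 2654, 2726 and 2710.0 in Control and 2097, 2182 and 2165 in siSirt6, all libraries below Control, and fell to 0.797 (log2 -0.33, SE 0.033). Its partner Tgfbr1 (ALK5) fell to 0.723, from 481.3 ± 31.4 to 348.1 ± 23.9 (SD, n = 3). Acvr2a, a type II receptor for activins, had the largest log2 fall among receptor kinases with non-overlapping groups. It gave 335.7, 337.9 and 316.8 in Control and 216.6, 201.0 and 239.4 in siSirt6 (log2 -0.59, adjusted p = 6.99e-07). Acvr1b (ALK4), the type I receptor of activins, fell to 0.769, from 512.8 ± 16.3 to 394.1 ± 19.6.

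Among BMP receptors, Bmpr1a (ALK3) read 1236, 1217 and 1264 in Control and 995.7, 893.8 and 1009 in siSirt6, a fall to 0.78 with no overlap. Bmpr2, the type II receptor mutated in heritable pulmonary arterial hypertension, read 1045, 1162 and 1290.3 in Control and 1046, 958.7 and 913.7 in siSirt6. Its groups overlapped, since Control replicate 1 lay just under siSirt6 replicate 1, although the fall passed (log2 -0.26, adjusted p = 0.00189). Acvr1 (ALK2) read 1161, 1053 and 1129 in Control and 1004, 1035 and 913.7 in siSirt6, a small fall to 0.883. Bmpr1b was near the lower limit of the data, at 14.6, 10.7 and 23.2 in Control and 3.96, 4.12 and 11.4 in siSirt6, with overlapping groups. Its estimate was wide (log2 -1.27, 95% interval -2.19 to -0.35, adjusted p = 0.00894) and the call was lost without Control replicate 3 (log2 -0.99, adjusted p = 0.0732) and with DESeq2 on 5 libraries (log2 -1.08, adjusted p = 0.124). In the length-adjusted fit, 5 of the 9 receptor kinases were lower and 1 higher. Bmpr1a, Tgfbr2 and Bmpr2 did not pass there, at log2 -0.06, -0.04 and 0.08, the last of opposite sign.

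Acvrl1 (ALK1), a type I receptor for BMP9 and BMP10 best known in endothelium, read 2006, 1864 and 1818 in Control and 2074, 2032 and 2009 in siSirt6. The groups nearly touched, at Control replicate 1 and siSirt6 replicate 3. The rise was 1.08-fold (log2 0.11, adjusted p = 0.00981), it was -0.01 on the log2 scale with libraries scaled to listed totals, and it did not pass without Control replicate 3 (log2 0.08, adjusted p = 0.0755). Endothelial markers moved the same way: 11 of the 15 markers were listed and all 11 were higher, against 50.5% of all genes tested. Among them, Cldn5 and Nos3 passed the filter on low values only through their siSirt6 values, so their rises are no support. The summed level of the 11 markers ranged from 2985 to 3244 in Control and from 4529 to 4654 in siSirt6. Flt1 made up most of that sum, at means of 1998 in Control and 2557 in siSirt6. Kdr rose 2.97-fold, Cdh5 2.28-fold and Flt1 1.28-fold. No listed endothelial marker was at 0 in any library, and Tek, Erg, Mmrn2 and Robo4 were not analysed here. The part of these markers in the result was not tested.

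The coreceptors went apart. Tgfbr3 (betaglycan), which presents TGF-beta2 to the type II receptor, read 1692, 1711 and 1766 in Control and 1171, 1239 and 1197 in siSirt6. All siSirt6 libraries were lower, a fall to 0.698 (log2 -0.52, SE 0.041, adjusted p = 3.25e-13) that kept its call in the length-adjusted fit (log2 -0.26). Lrrc32 (GARP), which anchors latent TGF-beta at the cell surface, was the receptor-group gene with the highest level per kb, 1211 in Control and 1564 in siSirt6. It read 5488, 5555 and 5577 in Control and 6938, 7332 and 7202 in siSirt6. The groups did not overlap, and the rise was 1.29-fold (log2 0.37, adjusted p = 5.83e-15).

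Extracellular antagonists and binding proteins held the largest fall of the 44 genes. In this group 4 of 10 were higher and 6 lower, against 50.5% and 49.3% of all genes tested. Grem1, encoding the BMP antagonist gremlin of the DAN family (chromosome 2, 113746164 to 113758646) read 5418, 5673 and 5681 in Control and 2521, 2436 and 2509 in siSirt6. It fell to 0.445 of Control (log2 -1.17, SE 0.029, adjusted p = 5.23e-27), far beyond the spread of either group. Its level per kb went from 1348 to 600.

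Chordin (Chrd), which binds BMP2 and BMP4, read 256.6, 271.6 and 255.0 in Control and 166.1, 132.0 and 175.9 in siSirt6, a fall to 0.605 with no overlap (log2 -0.73, adjusted p = 4.38e-07). Twsg1, its partner in BMP binding, read 1398, 1400.1 and 1514 in Control and 1089, 1089.6 and 1064 in siSirt6, a fall to 0.752. In contrast Bmper, the BMP-binding endothelial regulator, read 451.8, 454.7 and 449.1 in Control and 718.9, 645.3 and 694.1 in siSirt6. All siSirt6 libraries of Bmper were higher, and the rise was 1.52-fold (log2 0.60, SE 0.064); the endothelial markers given above rose in the same libraries. Nbl1 (DAN), a further BMP antagonist, read 4894, 4789 and 4651 in Control and 5949, 5842 and 5664 in siSirt6. The rise of 1.22-fold (log2 0.28) shrank to log2 0.06 in the length-adjusted fit, Nbl1 having one of the shortest transcripts among the members.

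Follistatin (Fst), which binds activins, read 1633, 1532 and 1651 in Control and 1047, 1142 and 1071 in siSirt6, below Control in every library. The fall was to 0.677 (log2 -0.56, SE 0.045, adjusted p = 3.77e-13), and Fst fell while the activin subunit gene Inhbb rose. Fstl3, a second activin binder, rose 1.3-fold, from 480.3 ± 18.2 to 622.1 ± 46.5, a rise that narrowly missed the threshold in the length-adjusted fit (log2 0.14, adjusted p = 0.0589). Of the exonic bases of Fstl3, 47.3% overlap Prss57 on the opposite strand, and the strand setting of the authors' counting is not given, so its values are uncertain. Fstl1, a secreted glycoprotein and the most abundant member per kb (6464 in Control), read 23959, 24814 and 24703 in Control and 22825, 22503 and 22791 in siSirt6. Its fall to 0.927 was small and did not pass in the length-adjusted fit (log2 -0.02, adjusted p = 0.289). Fstl4 was low and read 113.2, 84.7 and 103.3 in Control and 25.7, 37.1 and 17.7 in siSirt6. It had the largest fall of the members (log2 -1.92, SE 0.225, adjusted p = 4.27e-09).

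**Figure D3:**
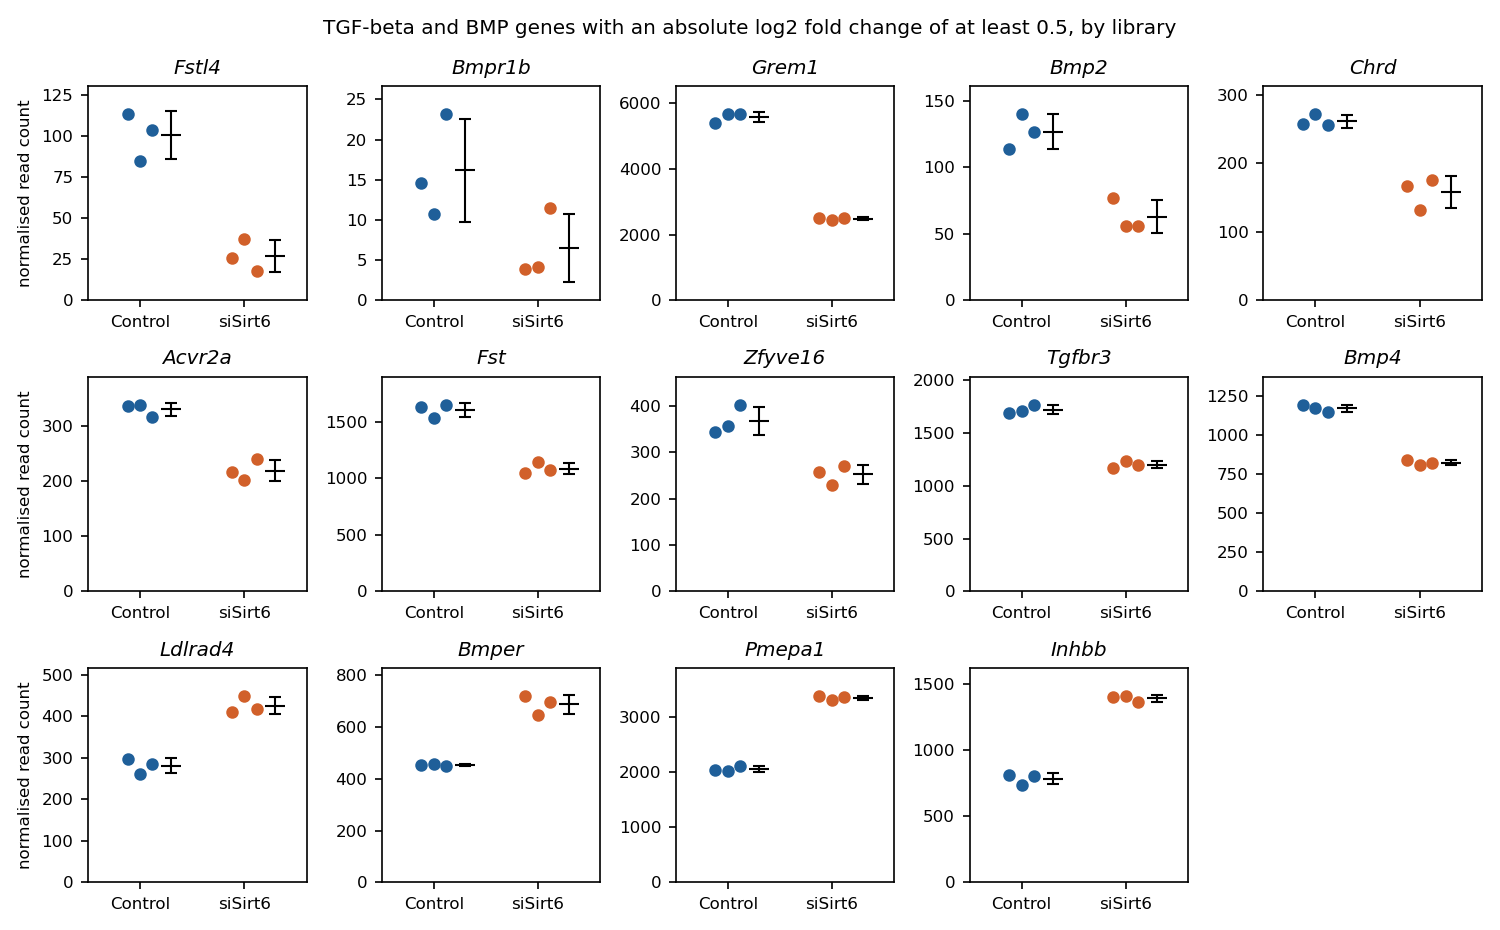
Normalised read counts (vertical axes from 0) of 14 members with an absolute log2 fold change of at least 0.5, by library (Control blue, siSirt6 orange), with mean ± SD (n = 3) beside the points. The groups are apart in every panel except Bmpr1b, and Grem1, Pmepa1, Inhbb and Bmp4 have narrow spreads in both groups.

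Of the 5 listed Smads, 4 fell and Smad7 rose, while 49.3% of all genes tested were lower. Smad3, the receptor Smad that mediates most TGF-beta transcription, fell to 0.762, from 847.9 ± 35.9 to 645.8 ± 20.6 (SD, n = 3, log2 -0.39, adjusted p = 1.67e-07). Smad2 went from 1000.03 ± 52.1 to 871.9 ± 25.4 (log2 -0.20), but it was 0.13 on the log2 scale in the length-adjusted fit (adjusted p = 0.0284). Smad4, the shared partner, read 1259, 1324 and 1295 in Control and 1059, 1091 and 1103 in siSirt6. All siSirt6 libraries were lower, and the fall was to 0.839 (log2 -0.25).

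The 2 inhibitory Smads went in opposite directions. Smad6, which mainly restrains BMP signalling and is induced by it, read 4839, 4805 and 4880.1 in Control and 4209, 4155 and 4076 in siSirt6. It fell to 0.857 (log2 -0.22, SE 0.026, adjusted p = 4.18e-09), and was the Smad with the highest level per kb, 1630 in Control. Smad7, which restrains TGF-beta and BMP receptors and is induced by TGF-beta, read 1527, 1543 and 1631 in Control and 1930.2, 1822 and 1813 in siSirt6. Every siSirt6 library was above Control, and the rise was 1.18-fold (log2 0.24, SE 0.040, adjusted p = 1.71e-06).

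Among intracellular regulators 4 of 8 rose (Pmepa1, Ldlrad4, Skil and Tgif1) and 4 fell (Ski, Zfyve16, Tgfbrap1 and Bmp2k). The shares over all genes tested were 50.5% higher and 49.3% lower. Pmepa1 (chromosome 2, 173224458 to 173276533), a membrane protein that sequesters receptor Smads and a target gene of TGF-beta, read 2031, 2015 and 2111 in Control and 3381, 3305 and 3354 in siSirt6. It rose 1.63-fold (log2 0.71, SE 0.032, adjusted p = 1.12e-19). Ldlrad4, a relative of Pmepa1 with a like role, read 298.6, 260.9 and 285.9 in Control and 411.4, 449.5 and 417.3 in siSirt6. The groups of both genes were well apart, and Ldlrad4 rose 1.51-fold, but 52.1% of its exonic bases overlap Fam210a on the opposite strand, which leaves its values uncertain. Skil, encoding the Smad corepressor SnoN, rose 1.37-fold, from 375.0 ± 14.1 to 512.7 ± 38.2, and more in the length-adjusted fit (log2 0.45 and 0.78). The corepressor gene Tgif1 rose 1.27-fold, from 402.2 ± 23.1 to 510.3 ± 50.3.

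Ski, the paralogue of Skil, went the other way. It read 3443, 3408 and 3617 in Control and 3067, 3139 and 2863 in siSirt6, a fall to 0.866 (log2 -0.21) that did not pass in the length-adjusted fit (log2 -0.05, adjusted p = 0.144). Zfyve16 (endofin), an endosomal Smad-binding protein, read 344.4, 356.4 and 401.8 in Control and 258.1, 228.9 and 269.5 in siSirt6. All siSirt6 libraries were lower, at 0.686 of Control (log2 -0.54, SE 0.089), with log2 -0.23 in the length-adjusted fit. Tgfbrap1, a receptor-associated endosomal protein, and Bmp2k fell to 0.839 and 0.776. Neither passed in the length-adjusted fit (log2 -0.05 and -0.05), and 14.0% of the exonic bases of Bmp2k overlap Paqr3 on the opposite strand. Of the genes taken by name, Zfyve1 and Zfyve21 fell to 0.839 and 0.838. Nox4, a hydrogen peroxide-producing NADPH oxidase that TGF-beta induces in smooth muscle, rose 1.33-fold, from 337.1 ± 29.2 to 447.8 ± 7.81.

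**Figure D4:**
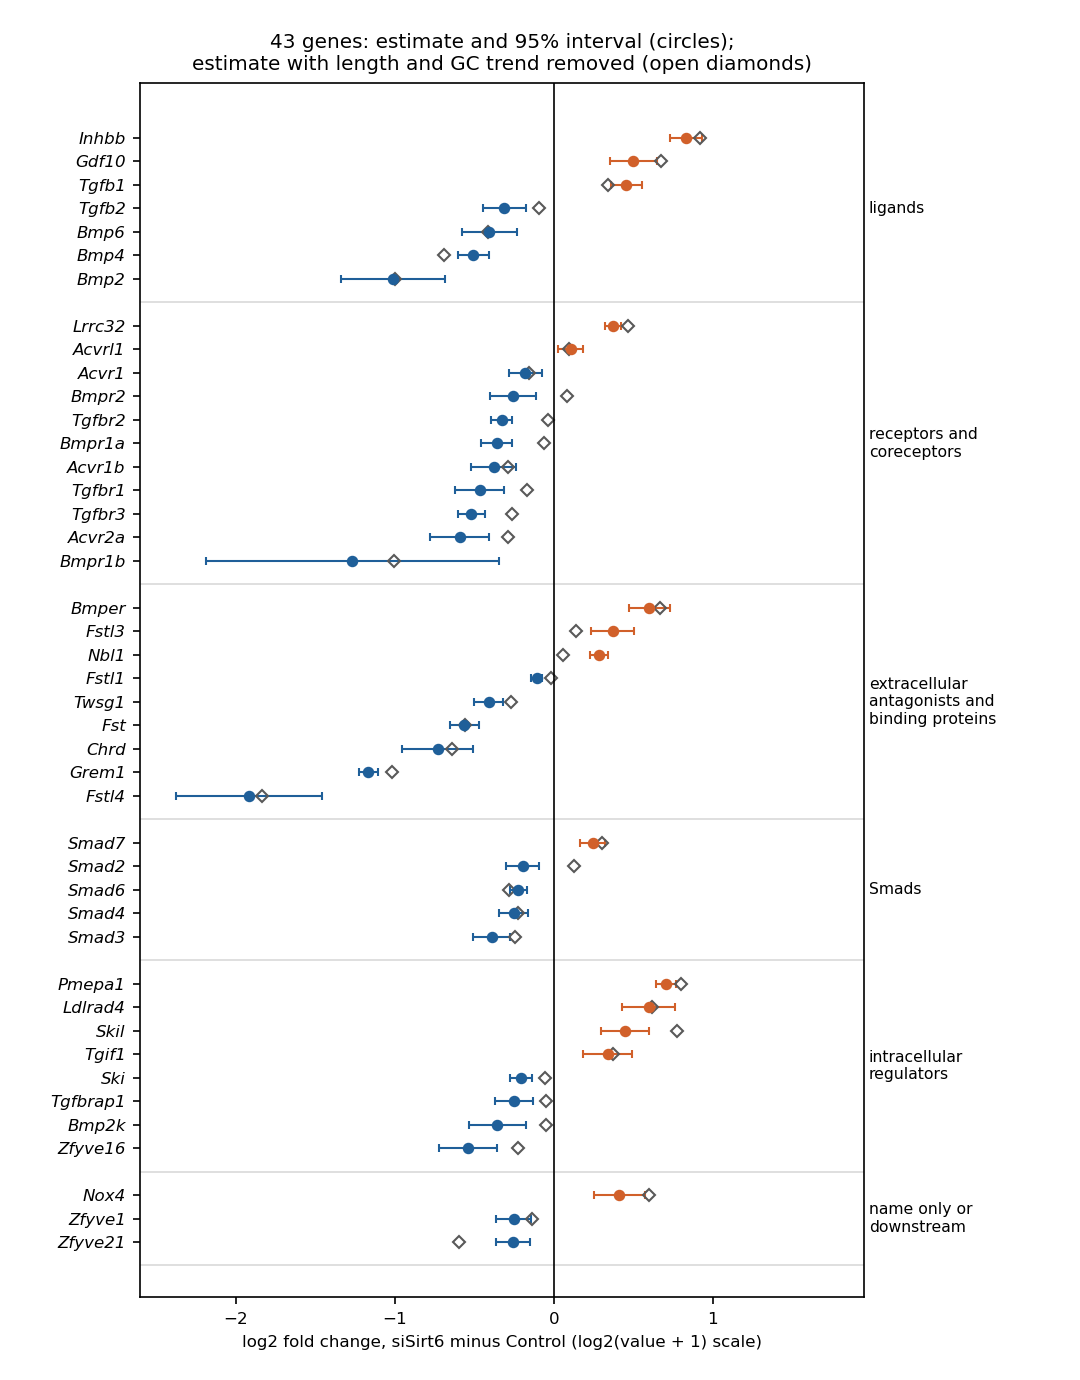
Log2 fold change (siSirt6 minus Control) of 43 members by role, with 95% intervals from limma (circles, orange higher and blue lower), and the estimate of the length-adjusted fit (open diamonds). Most receptor diamonds lie nearer 0 than their circles, and those of Bmpr2 and Smad2 cross it, while Grem1, Bmp2, Bmp4, Inhbb and Pmepa1 stay apart from 0.

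Genes of the pathway outside the rule were taken from 5 lists. Their counts stand against 50.5% higher and 49.3% lower over all genes tested. Of 35 TGF-beta target genes, 34 were listed, and 25 were higher and 9 lower, with a median log2 fold change of 0.26 against 0.08 over all genes tested. The transglutaminase gene Tgm2 rose 1.93-fold, the smooth muscle actin gene Acta2 1.66-fold and the protease inhibitor gene Timp1 1.66-fold. Among the 9 lower genes, Col1a1, Timp3 and Cdkn2b, chosen after their values were seen, went to 0.855, 0.729 and 0.743 of Control. With libraries scaled to listed totals, 19 of the 34 were higher and 12 lower. In the length-adjusted fit, 26 were higher and 8 lower, against 37.3% and 36.8% of all genes. The list is short in transcript, with a median of 3078.5 nt against 3384 nt over all genes tested. Of tested genes under 4329 nt, 63.4% were higher.

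Genes of latent complexes and their activation were listed for 13 of 18, with 8 higher, 5 lower and a median of 0.34. The length-adjusted fit left 9 of these genes higher and 1 lower. Ltbp2 rose 1.56-fold, the integrin subunit genes Itgb5 and Itgb1 1.55-fold and 1.27-fold, and Bmp1, a procollagen and chordin protease, 1.3-fold. Of 21 BMP target genes 13 were listed and 12 tested, 6 higher and 6 lower (median 0.03). The apelin gene Apln fell to 0.496, the transcription factor genes Id4 and Gata6 to 0.601 and 0.741, and Id3 rose 1.2-fold, although Id3 was -0.08 on the log2 scale in the length-adjusted fit. Id1 and Id2, chosen after their values were seen, went to 0.877 and 0.913 of Control. In the length-adjusted fit, 3 BMP targets were higher and 7 lower.

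Of 30 Smad partners and turnover genes, 22 were listed, 5 higher and 17 lower (median -0.21). The ubiquitin ligase gene Wwp1 fell to 0.661, the acetyltransferase gene Ep300 to 0.59 and the endocytic adaptor gene Dab2 to 0.767. Fkbp1a, whose product holds type I receptors inactive, rose 1.17-fold, but its log2 value of 0.23 went to 0.01 in the length-adjusted fit. This list is long in transcript (median 5596.5 nt), and 6 were higher and 7 lower in that fit, against 2 and 17 with libraries scaled to listed totals. Among other extracellular modulators 9 of 19 were listed, 5 higher and 4 lower (median 0.10), against 4 and 3 after length adjustment. The proteoglycan gene Fmod fell to 0.155, Dkk3 to 0.5 and the protease gene Htra1 to 0.794, while the BMP coreceptor gene Rgma rose 1.44-fold.

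**Figure D5:**
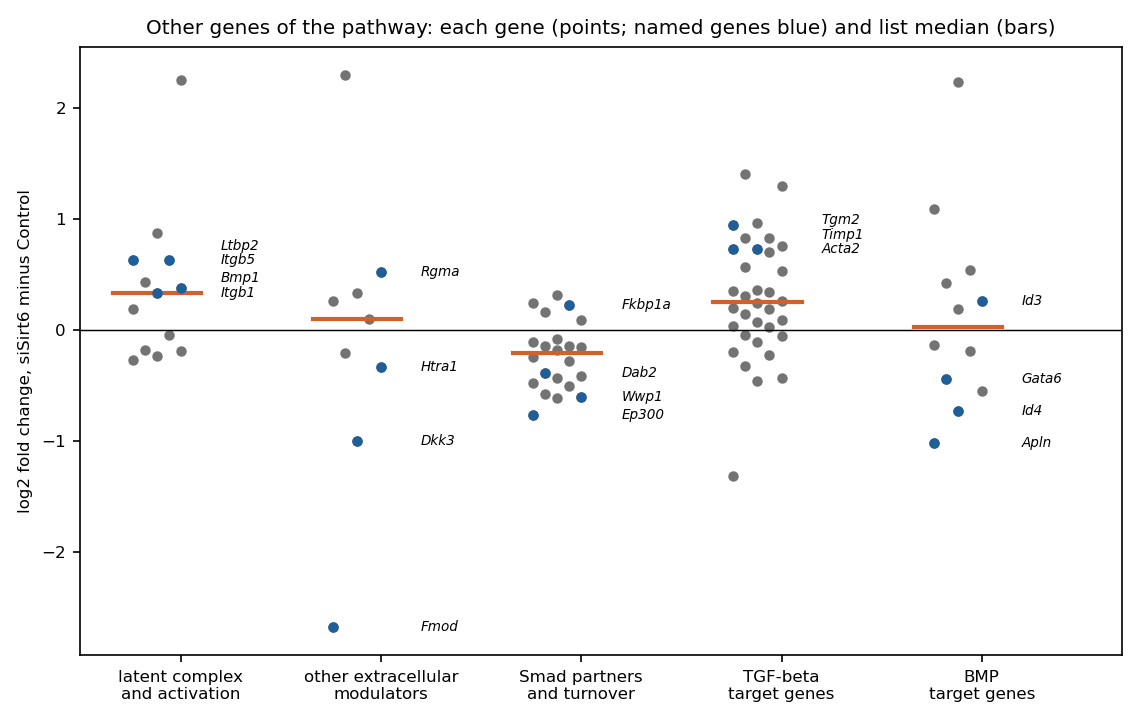
Log2 fold change (siSirt6 minus Control, vertical axis) of tested genes of 5 lists outside the 44 members, each point a gene, blue and labelled for the genes named in the text by the smallest p, with list medians as bars. The TGF-beta target genes lie mostly above 0 (median 0.26), the Smad partners mostly below (median -0.21), and the BMP targets on both sides (median 0.03).

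Markers of cell types other than endothelium were read beside these results, where 50.5% of all genes tested were higher and 49.3% lower. Of 10 smooth muscle markers 8 were listed, 7 higher and 1 lower, with a summed level of 75304 to 76056 in Control and 120113 to 121466 in siSirt6. Most of that sum was Acta2, at means of 58253 in Control and 96836 in siSirt6. Adventitial fibroblast markers were listed for 9 of 11, 4 higher and 5 lower, against 2 and 6 after length adjustment. Their summed level ranged from 100047 to 100726 in Control and from 86239 to 87627 in siSirt6. Gsn alone made up most of it, with means of 72100 in Control and 57433 in siSirt6, so the sum mainly follows 1 gene. Scara5 fell to 0.331 and Gsn to 0.797, and Ly6a rose 1.24-fold, but Ly6a was -0.03 on the log2 scale in the length-adjusted fit. Of 10 macrophage and leukocyte markers 3 were listed and all 3 were higher, with a summed level of 1777 to 1822 in Control and 1978 to 2018 in siSirt6. These were C1qb (1.26-fold), Lyz2 (1.08-fold) and Cd68 (1.27-fold), and the groups of Cd68 overlapped. In the length-adjusted fit C1qb, Lyz2 and Cd68 went to -0.07, -0.16 and 0.02 on the log2 scale. There 0 of the 3 were higher and 1, Lyz2, was lower. With libraries scaled to listed totals Lyz2 went to -0.01, and 0 of the 3 passed. The part of these markers in the members' values was not tested.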

How the data were processed

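RNA from 3 Control and 3 siSirt6 samples was sequenced from stranded mRNA libraries, per the labels' protocols. HISAT2, HTSeq, Cufflinks and Trimmomatic are listed, with the build mm10 but no versions or roles, per the submitters' processing notes. The authors deposited a signal per gene that is a read count scaled by 1 factor per library: 100% of values came out whole within 0.001 reads. They were tested with limma 3.58.1 in R 4.3.3 (trend, robust, 2-sided) on log2(value + 1), which understates changes of low genes, fitted over the 7179 genes that reached 10 in 3 or more libraries. Benjamini-Hochberg adjustment ran over all of them, at 0.05. N-fold values and parts of Control are ratios of group means. DESeq2 1.42.0 and edgeR 4.0.16 were run on recovered reads of 5 libraries, leaving out siSirt6 replicate 1, whose values a second check for whole reads did not accept. edgeR called 3407 genes higher and 3518 lower. The length-adjusted fit removed a spline (4 degrees of freedom each) on log length and GC content. Positions and lengths came from GENCODE vM21 (GRCm38, also called mm10), which held 7331 of 7384 identifiers, and upstream windows from RefSeq. Members are named, with library values where the absolute log2 fold change was at least 0.5 or the mean at least 1000 (28 members), and from each other list the 4 genes (markers 3) with the smallest p; 2 of the genes so chosen are not reported here. The members and lists were chosen with earlier results of these data known. Alternatives are given in the closing section.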

Additional observations from a re-analysis of the deposited data

How the results depend on the processing

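The 15 higher and 29 lower members stayed within 1.5 times under every alternative run, with the fewest lower calls, 20, in the length-adjusted fit. Without 1 library, 14 to 15 members were higher and 28 to 29 lower, all genes tested gave 3540 to 3577 higher and 3445 to 3474 lower, and Sirt6 lay between -2.31 and -2.06 (log2). Under listed totals as the scale, the median of all genes shifted by -0.12 (log2), 43.1% of calls were higher in place of 50.6%, and 14 members were higher and 29 lower. Among members and genes named above, signs turned in the length-adjusted fit for Smad2 (0.13), Bmpr2 (0.081), Id3 (-0.084), Ly6a (-0.033), C1qb (-0.065) and Lyz2 (-0.16), and under listed totals for Acvrl1 (-0.013) and Lyz2 (-0.0097). Other genes of the lists turned too, among them the TGF-beta targets Postn (0.12) and Lox (0.10) after length adjustment and Col4a1 (-0.040) under listed totals. The cause was not tested. In the length-adjusted fit 8 further members no longer passed: Fstl1, Fstl3, Bmp2k, Tgfbrap1, Ski, Tgfb2, Bmpr1a and Tgfbr2. Calls of Acvrl1 and Bmpr1b were also lost with DESeq2, and that of Acvrl1 with edgeR and with limma without trend and robust fitting. Deviations of same-numbered libraries correlated at -0.019, 0.027 and -0.0008. These values show no sign of pairing by number, but how replicates were numbered is not given, so they cannot exclude it. The replicate block gave 15 members higher and 29 lower, 3629 and 3540 genes, and a Sirt6 log2 of -2.21. Low counts limit Bmpr1b, whose 6 values lie between 3.96 and 23.2.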

Other observations

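Integrin genes for activation of latent TGF-beta, chosen after their values were seen, were higher in siSirt6. Itgav, the alpha V subunit, read 2836, 2910.2 and 2930.2 in Control and 4018, 3548 and 4175 in siSirt6, a rise of 1.35-fold. Its partner genes Itgb8 and Itgb6 were low, at 20.5, 26.3 and 26.1 and 4.88, 11.7 and 0 in Control and 52.4, 33 and 53.1 and 17.8, 26.8 and 14.6 in siSirt6. The groups of all 3 genes did not overlap, but neither did those of 96.8% of all genes tested, so non-overlap sets none of them apart. Itgb6 was near the lower limit of the data, and only its siSirt6 values carried it past the filter on low values. With limma p adjusted over all annotated genes, Itgav and Itgb8 passed and Itgb6 did not (adjusted p = 0.11). Itgb3 and Thbs1 were not analysed here.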
